A study of Arabidopsis thaliana with 6 samples.

Results

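The photoreceptor genes of Arabidopsis thaliana were described in whole seedlings of the mir163 mutant and of the wild type (WT). They are the 5 phytochromes PHYA to PHYE, the cryptochromes CRY1 and CRY2, the phototropins PHOT1 and PHOT2, and the UV-B receptor UVR8, taken by gene identifier from the authors' deposited table. All 10 were found among its 19955 genes. The labels name 3 libraries of the mir163 mutant and 3 of WT, both in accession Col-0 and both untreated. The seedlings were aged 7 days and grown at 22 °C with 16 h of light per day, at 100 µmol per square metre per second. The mir163 mutant lacks the microRNA miR163, but its allele and the number of lines used are not given in the labels. The table holds 1 FPKM value per gene and genotype, a fragment count divided by transcript length and by the mapped total. Replicate spread can therefore be stated for no gene, and sequencing depth is unknown. FPKM is per length of transcript, so levels of different genes can be set side by side.

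Plants read light through receptors of several classes. Phytochromes carry a bilin chromophore, switch between a red-absorbing and a far-red-absorbing form, and enter the nucleus in the active form, where they bind and destabilise PIF transcription factors. Cryptochromes and phototropins bind flavins and respond to blue light, cryptochromes acting mainly on growth and flowering through COP1 and SPA proteins, and phototropins being membrane-bound kinases that steer bending, stomatal opening and chloroplast position. UVR8 absorbs UV-B through its own tryptophans, splits from a dimer into monomers and then binds COP1. In seedlings these receptors together control de-etiolation, the change from growth in darkness to growth in light.

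miR163, the microRNA absent from the mutant, pairs with messenger RNAs of methyltransferases, and its sequence is shown because the first question for the photoreceptors is whether their transcripts could pair with it. The mature sequence is read from chromosome 1, chr1:24884359-24884382, plus strand of TAIR10.1 (RefSeq), in DNA letters, with the seed (bases 2 to 8) in capitals. Below it stand the pairing window of the known target PXMT1 and the closest windows found in the transcripts of UVR8 and CRY1, the 2 photoreceptor genes with the largest ratios between genotypes. In the windows, capitals mark bases equal to the reverse complement of miR163.
miR163: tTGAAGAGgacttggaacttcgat
PXMT1: ATCGAGTTCCAAGTCCTCTTCAA
UVR8: ACGAAGTTaCggcTCCTCcTCgt
CRY1: tTCctAGTgtCAATCtTCTTCAc

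The PXMT1 window (chr1:24874307-24874329, minus strand, coding sequence) has 1 difference from full pairing, a missing base. The UVR8 window (chr5:25558543-25558565, minus strand, coding sequence) and the CRY1 window (chr4:5723710-5723732, plus strand, outside the coding sequence) have 8 differences each, counting mismatches and at most 1 gap of 1 base. Among the photoreceptor transcripts the closest window had 8 differences in PHYD, PHYE, CRY1, PHOT2 and UVR8, and 9 in PHYA, PHYB, PHYC, CRY2 and PHOT1. Of 27556 protein-coding genes searched in the same way, 25.8% had a window with 8 differences or fewer and 69.6% one with 9 or fewer. The photoreceptor transcripts thus stood at numbers of differences that many genes share, and none came near the 1 difference of PXMT1. Transcript length, which was 2209 bases for UVR8 and 6518 for PHOT2, was not accounted for in this search.

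**Figure D1:**
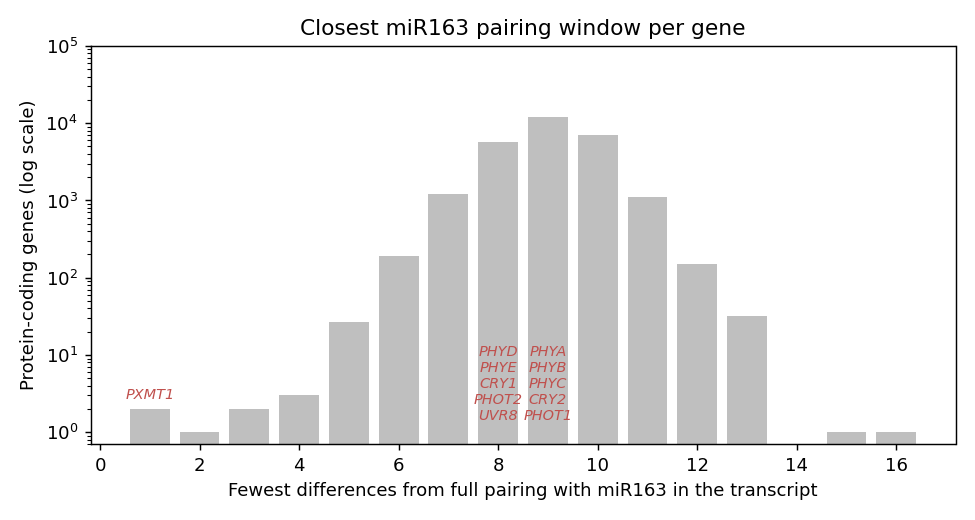
Number of protein-coding genes (vertical axis, log scale) by the fewest differences from full pairing with miR163 in the longest-coding transcript (horizontal axis). The 10 photoreceptor genes stand at 8 or 9 differences, in the bulk of all genes, and PXMT1 stands at 1.

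The genotype was checked first. MIR163 (AT1G66725) had an FPKM of 0.0726 in mir163, against 20.5 in WT, and its target PXMT1 (AT1G66700) had 47.6 in mir163, against 1.32 in WT. The authors' deposited table gave these differences p-values of 0.180 and 5e-05. Markers of shoot (RBCS1A, LHCB1.1) and of root (CASP1, PRP3) were abundant in both genotypes, with summed FPKM of 18097 in mir163 and 22994 in WT for shoot, and 135 in mir163 and 141 in WT for root. The seed markers CRA1 and EM6 were low, with a summed FPKM of 10.3 in mir163 and 2.60 in WT. CRA1 had 7.71 in mir163 and 1.43 in WT (p 0.00125 in the authors' deposited table). EM6 had 2.60 in mir163 and 1.17 in WT (p 0.141 in the authors' deposited table). The flower markers AP3 and AG had no value in the authors' deposited table and were not analysed. In whole seedlings a change in the number of cells of a type and a change in RNA per cell cannot be told apart.

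None of the 10 photoreceptor genes was called in the comparison of mir163 with WT. Of all 19264 genes tested, those with an FPKM of at least 1 in a genotype, 0% were called at an adjusted p under 0.05 (Benjamini-Hochberg adjustment of the p-values that the authors deposited), so that 0 of 10 is also what all genes gave. All 10 photoreceptor genes were above this minimum in both genotypes, and each had an adjusted p of 0.9996. PXMT1, with a ratio of 36.1, had an adjusted p of 0.0876, equal to the lowest over all genes, and MIR163 had 0.9996. Neither check of the genotype was thus called either, so the lack of a call does not show equal levels. At an unadjusted p under 0.05, 0 of 10 photoreceptor genes were counted, against 0.997% of all genes. In the authors' deposited table their p-values ran between 0.356 for UVR8 and 0.983 for PHYC, and 3 of them lay under the median of all genes tested, 0.768. A ratio of at least 1.5 in either direction was reached by 0 of the 10, against 6.87% of all genes tested.

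The 10 genes had a higher value in mir163 in 6 cases and a lower one in 4, against 51.3% of all genes higher and 48.7% lower. With quantile normalization the split was 5 and 5, since PHYC, with nearly equal values, crossed 0. The median difference of the 10 on the log2(FPKM + 1) scale, mir163 minus WT, was 0.02, beside 0.01 over all genes tested. Single genes lay between -0.39 for CRY1 and 0.55 for UVR8 on that scale. Their summed FPKM was 397 in mir163 and 410 in WT, a ratio of 0.967. The photoreceptor pool as a whole was thus close in size in the 2 genotypes, while UVR8 and CRY1 stood at its opposite edges.

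**Figure D2:**
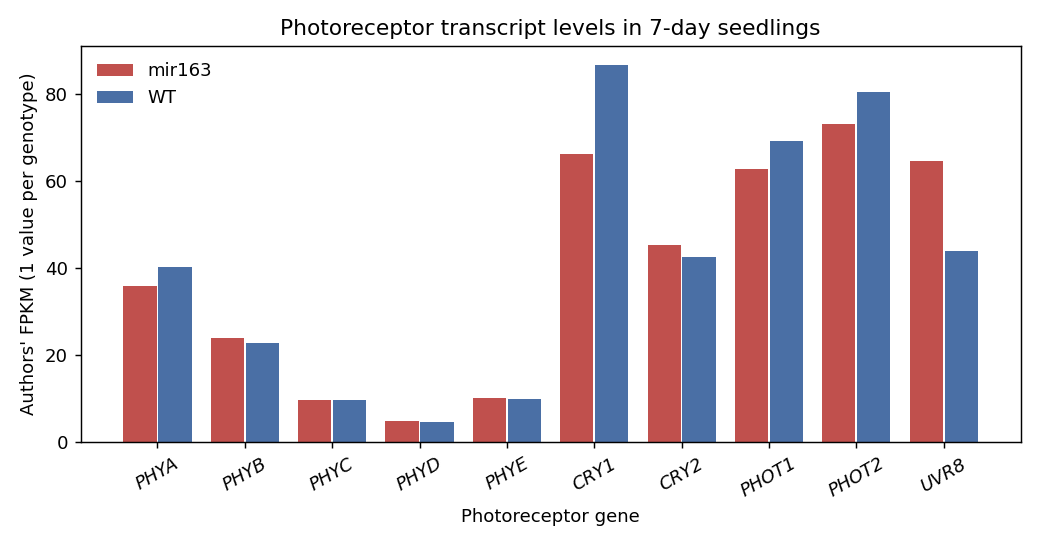
The authors' FPKM of each photoreceptor gene (vertical axis), with mir163 as the left bar and WT as the right bar of each pair and 1 value per genotype, so no error bars can be drawn. UVR8 is higher in mir163 (64.6 against 43.9 in WT), CRY1 is lower (66.1 against 86.7 in WT), and PHYB, PHYC, PHYD and PHYE are nearly level.

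Levels among the photoreceptors spanned 14.8-fold in mir163 and 18.7-fold in WT. In mir163 the order from high to low FPKM was PHOT2, CRY1, UVR8, PHOT1, CRY2, PHYA, PHYB, PHYE, PHYC and PHYD. In WT it was CRY1, PHOT2, PHOT1, UVR8, CRY2, PHYA, PHYB, PHYE, PHYC and PHYD. The places from rank 5 down were held by the same genes in both genotypes, and the changes of order fell among the top 4. With 1 value per genotype, whether neighbours in this order differ beyond replicate error cannot be said. The median over the 10 genes was an FPKM of 40.6 in mir163 and 41.4 in WT, while the median over all genes in the table was 12.2 in each. CRY1 stood at percentile 87.7 of all genes in mir163 and 90.6 in WT, and PHYD at percentile 27.1 in mir163 and 26.1 in WT.

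**Figure D3:**
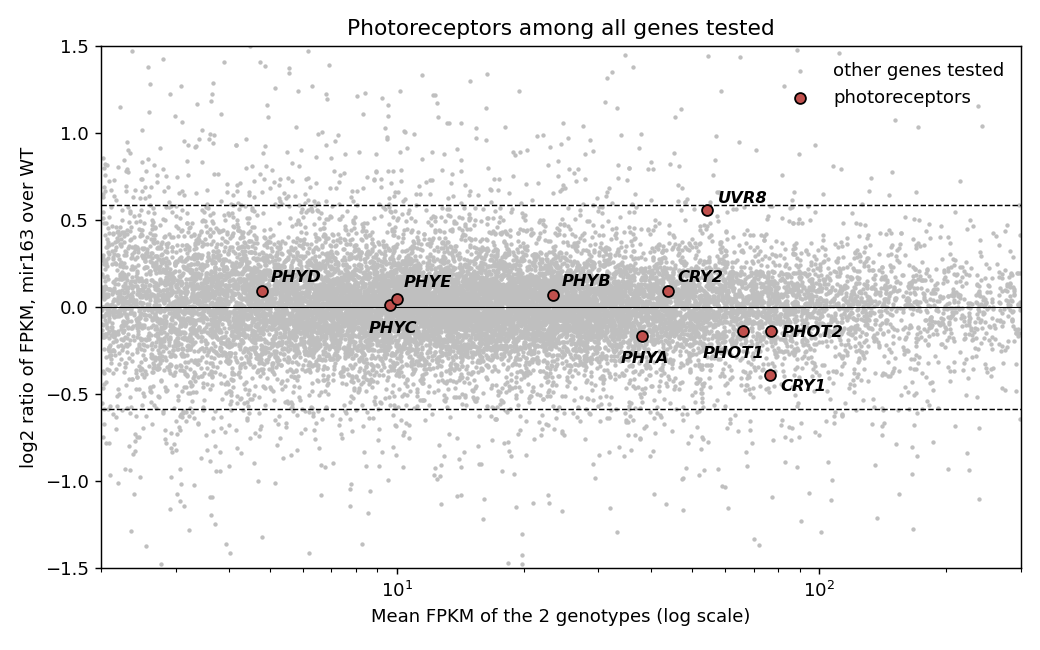
Ratio of FPKM between genotypes (vertical axis, log2, mir163 over WT) against the mean FPKM of the 2 genotypes (horizontal axis, log scale) for 16817 genes within the axes, in grey, with the photoreceptor genes in red. Dashed lines mark a ratio of 1.5 in each direction, and all 10 photoreceptor genes lie between them, with UVR8 nearest to the upper line.

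Among the phytochromes, PHYA (AT1G09570) was the most abundant. It encodes the light-labile phytochrome that mediates responses to far-red light and to very weak light. Its FPKM was 35.9 in mir163, against 40.3 in WT, a ratio of 0.891 (p 0.694 in the authors' deposited table). PHYA lies on chromosome 1, positions 3095160 to 3100819, minus strand of TAIR10.1, where RefSeq annotates 6 transcripts. PHYA stood lower in mir163 and the light-stable phytochromes PHYB, PHYC, PHYD and PHYE slightly higher, none of them called, with PHYC lower under quantile normalization.

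PHYB (AT2G18790) encodes the main receptor of red light in light-grown plants, which also acts in the sensing of warmth. It had an FPKM of 24.0 in mir163 and 22.9 in WT (ratio 1.05, p 0.864 in the authors' deposited table). PHYD (AT4G16250), the closest relative of PHYB and a minor receptor of shade, had the lowest level of the 10, with 4.95 in mir163 and 4.64 in WT (ratio 1.07). PHYB thus exceeded PHYD by 4.84-fold in mir163 and 4.93-fold in WT. PHYC (AT5G35840), whose protein works as a partner of other phytochromes, had 9.67 in mir163 and 9.61 in WT. PHYE (AT4G18130), which acts with PHYB and PHYD in shade responses, had 10.15 in mir163 and 9.84 in WT. In the authors' deposited table the p-values of PHYC, PHYD and PHYE were 0.983, 0.814 and 0.947. These 4 genes each differed by less than a ratio of 1.1 between genotypes, and their summed FPKM was 48.7 in mir163 and 47.0 in WT.

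The make-up of the phytochrome pool was similar in both genotypes. PHYA held 42.4% of the summed phytochrome FPKM in mir163 and 46.2% in WT, and PHYB held 28.3% in mir163 and 26.2% in WT. PHYE held 12.0% in mir163 and 11.3% in WT, PHYC 11.4% in mir163 and 11.0% in WT, and PHYD 5.85% in mir163 and 5.32% in WT. The ratio of PHYA to PHYB was 1.497 in mir163 and 1.76 in WT.

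Coding sequences were compared only within a family, and among those pairs PHYB and PHYD were the most alike. Their coding sequences were identical at 80.5% of 3455 aligned bases, where other phytochrome pairs had between 60.7% and 67.0%, CRY1 and CRY2 66.0%, and PHOT1 and PHOT2 66.4%. The longest exact run shared by PHYB and PHYD was 43 bases, and no stretch of 50 bases in either transcript was found in another annotated transcript. The sources used here do not say how the authors' counting treated reads shorter than such a stretch.

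The promoters of this pair are shown because they hold the motif CACGTG (the G-box, bound by PIF and HY5 factors), which was found in no other photoreceptor promoter. Each is the 300 bases before the annotated gene start in TAIR10.1 (RefSeq), written in the direction of the gene, with G-boxes in capitals: PHYB at chr2:8139456-8139755, plus strand, and PHYD at chr4:9199841-9200140, minus strand.
PHYB: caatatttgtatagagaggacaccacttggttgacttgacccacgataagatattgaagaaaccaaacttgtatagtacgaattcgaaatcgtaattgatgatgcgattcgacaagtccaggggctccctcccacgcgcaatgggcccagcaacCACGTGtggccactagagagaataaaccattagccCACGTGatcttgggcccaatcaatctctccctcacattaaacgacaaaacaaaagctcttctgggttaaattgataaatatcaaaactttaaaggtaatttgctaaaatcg
PHYD: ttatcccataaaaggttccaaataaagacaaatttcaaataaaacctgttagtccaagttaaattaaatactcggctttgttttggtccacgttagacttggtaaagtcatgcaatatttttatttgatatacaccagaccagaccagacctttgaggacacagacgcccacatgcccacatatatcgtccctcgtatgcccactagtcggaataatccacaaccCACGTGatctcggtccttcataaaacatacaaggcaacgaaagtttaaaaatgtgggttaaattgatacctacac

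PHYB held 2 G-boxes, starting 146 and 111 bases before the gene start, and PHYD held 1, starting 75 bases before it. The motif, which reads the same on both strands, was present in 2 of 10 photoreceptor promoters and in 7.06% of 27561 promoters of the same length. The promoters of PHYB and PHYD also shared an exact run of 15 bases, tgggttaaattgata, the longest among the 45 pairs of photoreceptor promoters, where the next longest run had 11 bases. Motifs of the circadian clock, the evening element AAAATATCT and the CCA1-binding site AAAAATCT, searched on both strands, were in 0 of the 10 windows, against 2.79% and 7.94% of all promoters. These matches describe the letters of these windows and say nothing on the binding of any factor. The values of PHYB and PHYD were close between genotypes, as given above.

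**Figure D4:**
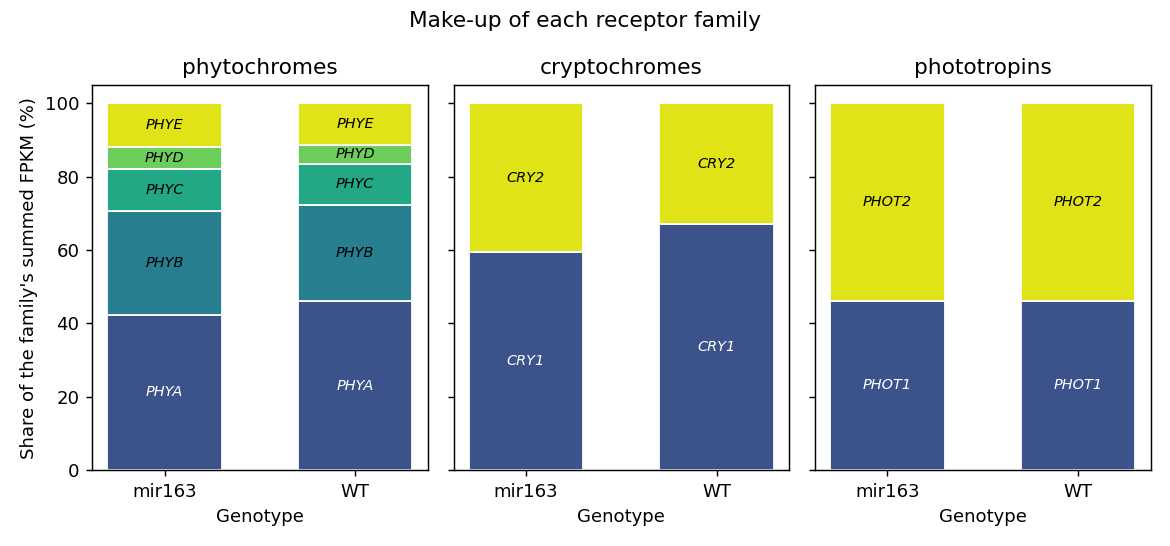
Share of each family's summed FPKM held by each gene (vertical axis, percent), with mir163 as the left bar and WT as the right bar for phytochromes, cryptochromes and phototropins. The make-up is nearly the same for phototropins, and CRY2 holds a larger share of the cryptochrome sum in mir163 (40.7%) than in WT (32.9%).

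CRY1 (AT4G08920), the main blue-light receptor of hypocotyl growth, was the photoreceptor gene with the largest difference towards a lower value in mir163. Its FPKM was 66.1 in mir163, against 86.7 in WT, a ratio of 0.762, and the authors' deposited table gave it a p of 0.367. A ratio of this size or larger, in either direction, was found in 14.1% of all genes tested. CRY2 (AT1G04400), a light-labile cryptochrome known for its part in flowering by day length, had 45.3 in mir163 and 42.6 in WT (ratio 1.06, p 0.832 in the authors' deposited table). CRY1 exceeded CRY2 by 1.46-fold in mir163 and 2.04-fold in WT. The summed cryptochrome FPKM was 111 in mir163 and 129 in WT, with CRY1 holding 59.3% in mir163 and 67.1% in WT. Neither cryptochrome was called, so this shift is a description of 1 value per genotype. CRY1 lies on chromosome 4, positions 5723651 to 5727268, plus strand, and CRY2 on chromosome 1, positions 1185512 to 1188696, minus strand.

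The phototropins had nearly equal ratios. PHOT1 (AT3G45780), the receptor of phototropism at low and high blue light, had an FPKM of 62.8 in mir163, against 69.2 in WT. PHOT2 (AT5G58140), which also drives the avoidance movement of chloroplasts in strong light, had 73.1 in mir163, against 80.5 in WT. The ratio was 0.909 for PHOT1 and 0.908 for PHOT2, and PHOT2 exceeded PHOT1 by 1.16-fold in both genotypes. In the authors' deposited table the p-values were 0.798 and 0.809. About 50.1% of all genes tested differed by the ratio of PHOT1 or more, so these values are ordinary for the table. After each column was scaled to a sum of 1000000, the differences of PHOT1 and PHOT2 on the log2 scale were both -0.01. The median of all genes was 0.12 in that setting, so both stayed under it.

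The level of PHOT2 carries an added uncertainty from the annotation. PHOT2 lies on chromosome 5, positions 23523825 to 23533111, plus strand, with 7 annotated transcripts, 3 of which run over AT5G58150, a protein-coding gene on the opposite strand. The longest-coding transcript of PHOT2 has 6518 bases, and 2760 of them fall within that gene. In that transcript 41.9% of stretches of 50 bases were also found in another annotated transcript. The longest PHOT2 transcript free of the overlap has 3389 bases. Whether the libraries kept strand is not stated, so reads of PHOT2 and AT5G58150 may not have been told apart. AT5G58150 had no value in the authors' deposited table and was not analysed. PHYE shares 60 bases of its transcript with SSP4b on the same strand, and the other 8 photoreceptor genes overlap no annotated gene.

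UVR8 (AT5G63860) had the largest difference of the 10. Its FPKM was 64.6 in mir163, against 43.9 in WT, a ratio of 1.47, with a p of 0.356 in the authors' deposited table. UVR8 thus did not pass, and 7.59% of all genes tested had a ratio of this size or larger in either direction. Among 12534 genes tested with a mean FPKM within the range of the photoreceptors, 4.80 to 76.8, those at an unadjusted p under 0.05 had ratios of at least 1.84, with a median of 2.71, leaving aside 2 genes listed at 0 in a genotype. Ratios of UVR8's size or larger were found in 595 of those genes, of which 113 had an unadjusted p under 0.05. UVR8 lies on chromosome 5, positions 25554416 to 25559499, minus strand, with 13 exons, where the phytochromes have 3 to 5, PHOT1 20 and PHOT2 24. It held 16.3% of the summed photoreceptor FPKM in mir163 and 10.7% in WT. UVR8 stood level with CRY1 in mir163 (0.976 times its FPKM), while in WT it had 0.506 times the FPKM of CRY1.

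The regulators of UVR8 were examined next. RUP1, a repressor that returns UVR8 to its inactive dimer, had an FPKM of 13.2 in mir163, against 28.8 in WT, a ratio of 0.458 (p 0.0578 in the authors' deposited table). RUP2, its close relative with the same role, had 26.4 in mir163, against 39.6 in WT (ratio 0.668, p 0.172 in the authors' deposited table). COP1, the ubiquitin ligase that active UVR8 binds, had 22.8 in mir163 and 23.2 in WT. HY5 and HYH, transcription factors of the UV-B response, had 25.7 and 107 in mir163, against 23.6 and 124 in WT. Of these 5 genes, 0 were called, against 0% of all genes tested. A lower value was found in 4, against 48.7% of all genes. After scaling each column to a sum of 1000000, 3 were lower and 4 lay under that setting's median of all genes. A ratio past 1.5 was found in 1, RUP1, in the lower direction, against 3.33% of all genes. UVR8 exceeded RUP1 by 4.89-fold in mir163 and 1.52-fold in WT, and it exceeded RUP2 by 2.44-fold in mir163 and 1.11-fold in WT. These ratios combine values of genes that were not called.

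**Figure D5:**
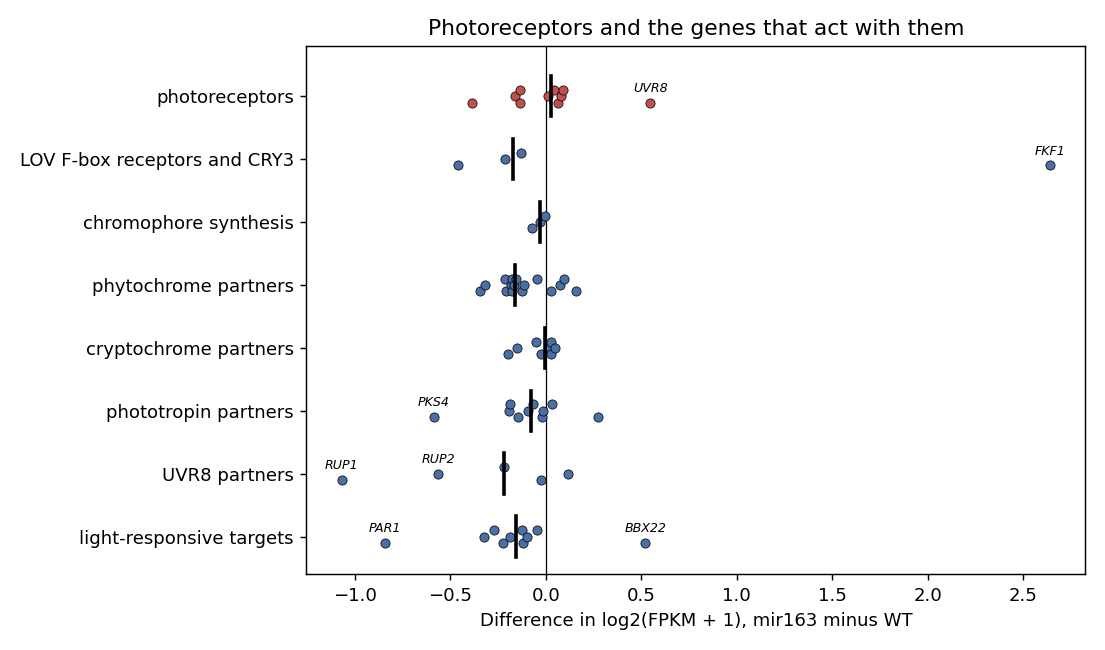
Difference in log2(FPKM + 1), mir163 minus WT (horizontal axis), for each tested gene of the photoreceptors (red) and of 7 lists of genes that act with them (blue), with the list's median as a vertical bar. FKF1 stands far to the right at 2.64, RUP1, PAR1, PKS4 and RUP2 stand to the left, BBX22 and UVR8 stand to the right, and the other genes lie nearer to 0. Genes with a difference of at least 0.5 are named.

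Other flavin receptors of blue light were set beside the 10. FKF1, a LOV-domain F-box protein of day-length sensing, had an FPKM of 5.90 in mir163, against 0.105 in WT, and the authors' deposited table gave a p of 0.00175. It had an adjusted p of 0.9996 over all genes and was not called, and it entered the test only through its mir163 value. Its relative ZTL, which degrades clock proteins, had 30.5 in mir163, against 35.6 in WT (p 0.599 in the authors' deposited table). LKP2, the other relative, had 10.4 in mir163, against 11.5 in WT. CRY3, a cryptochrome of organelles, had 16.4 in mir163, against 22.9 in WT (p 0.204 in the authors' deposited table). CRY3 and CRY1 both stood lower in mir163, and CRY2 higher, none of them called.

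The genes of phytochrome chromophore synthesis had nearly equal values. HY1, the main haem oxygenase of the plastid, had an FPKM of 97.5 in mir163 and 97.9 in WT, and HO2 had 23.5 in mir163 and 24.8 in WT. HY2, which completes the bilin, had 10.5 in mir163 and 10.8 in WT. All 3 tested had a slightly lower value, against 48.7% of all genes, and 0 were called, against 0% of all genes. After scaling to a sum of 1000000 all 3 had a higher value, and 2 lay under that setting's median of all genes. HO3 and HO4 had no value in the authors' deposited table and were not analysed.

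Of the 16 genes that act with phytochromes, 0 were called, against 0% of all genes tested. A lower value in mir163 was found in 12, against 48.7% of all genes, and a higher one in 4. After scaling to a sum of 1000000 the counts were 9 and 7, and 12 lay under that setting's median of all genes. The median difference of the 16 on the log2(FPKM + 1) scale was -0.16. All 5 PIF factors measured (PIF1, PIF3, PIF4, PIF5 and PIF7) had lower values, with p-values between 0.612 and 0.755 in the authors' deposited table. After that scaling 4 of 5 were lower, and all 5 lay under the median of all genes. PIF5, which promotes elongation in shade, had an FPKM of 80.7 in mir163, against 91.2 in WT. LRB2, a subunit of the ubiquitin ligases that degrade phyB with PIF3, had 44.6 in mir163, against 50.5 in WT. FHY1 and FHL, which carry phyA into the nucleus, had 6.67 and 1.20 in mir163, against 7.60 and 1.73 in WT.

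The genes that act with cryptochromes were balanced, with 4 of 8 higher, 4 lower and 0 called, against 48.7% of all genes lower and 0% called. After the same scaling 6 of the 8 were higher and 2 lower, and 4 lay under that setting's median of all genes. BIC1, an inhibitor of cryptochrome dimers, had 44.0 in mir163 and 42.6 in WT, and SPA1, a partner of COP1, had 32.4 in mir163 and 31.8 in WT. Their median difference on the log2(FPKM + 1) scale was -0.0027. CRY1 itself lay below this list, at -0.39.

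Of the 10 genes that act with phototropins, 8 had a lower value, against 48.7% of all genes, and 2 a higher one. Called were 0, against 0% of all genes. After the same scaling 4 were lower and 6 higher, and 8 lay under that setting's median of all genes. RPT2, a light-induced partner of NPH3 and the most abundant of the 10, had an FPKM of 341 in mir163, against 388 in WT. CHUP1, which ties chloroplasts to actin, had 85.5 in mir163, against 89.5 in WT. PKS4, a substrate of PHOT1 in phototropism, had 10.5 in mir163, against 16.3 in WT (ratio 0.645, p 0.138 in the authors' deposited table), the list's only ratio past 1.5.

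Genes that respond to light gave 9 of 10 lower values, against 48.7% of all genes, and 0 calls, against 0% of all genes. After the same scaling 6 of 10 were lower, and 9 lay under that setting's median of all genes. The list holds CHS, ELIP1, ELIP2, PIL1, ATHB2, HFR1, XTR7, PAR1, BBX22 and GATA22. Genes that light raises and genes of shade growth were not separated in it, so the count does not measure a single response. CHS, the first enzyme of flavonoid synthesis, had an FPKM of 257 in mir163, against 301 in WT. ELIP2, a photoprotective protein, had 225 in mir163, against 244 in WT. PAR1, a brake on shade growth, had 11.0 in mir163, against 20.6 in WT (ratio 0.536, p 0.0716 in the authors' deposited table). BBX22, a cofactor of HY5 named after its value was seen, had 15.9 in mir163, against 10.8 in WT.

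Over the 7 lists, with each gene counted once, 42 of the 55 genes tested had a lower value in mir163 and 13 a higher one, where 48.7% of all genes tested were lower, and their median difference was -0.12 on the log2(FPKM + 1) scale. After scaling to a sum of 1000000, which moved the median of all genes by 0.12, 27 of 55 were lower and 28 higher, and 41 of 55 lay under that setting's median of all genes. An unadjusted p under 0.05 was reached by 1 of the 55, against 0.997% of all genes, and this was FKF1, which entered the test only through its mir163 value. A ratio past 1.5 was reached by 4, FKF1 with a higher value and RUP1, PAR1 and PKS4 with lower values, against 6.87% of all genes. Marker values also differed between the genotypes. Both shoot markers were lower in mir163, neither of them called. RBCS1A had an FPKM of 15342 in mir163 and 18310.4 in WT (ratio 0.838), and LHCB1.1 had 2756 in mir163 and 4683 in WT (ratio 0.588). Both seed markers were higher in mir163, as given above, and neither was called. The part of these markers in the values of the lists was not tested. Whether the photoreceptor genes differ from the genes that act with them was not tested.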

How the data were processed

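RNA was extracted with Trizol from whole seedlings, and an NEBNext Ultra kit was used for the libraries, per the labels' protocols. Build TAIR10 and the tools bcl2fastq 2.17.1.14, TopHat and Cufflinks are listed, per the submitters' processing notes, without their roles. Per the file headers, the authors deposited 1 FPKM value per genotype, a log2 fold change and a p-value for each gene. The deposited log2 fold change was found equal to the log2 of mir163 over WT FPKM. The deposited p-value is headed only as a p-value and was treated here as unadjusted, and whether it had been adjusted is not stated. The sources used here do not state which test gave it or how libraries were combined.

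Ratios of FPKM, differences in log2(FPKM + 1) and Benjamini-Hochberg adjusted p-values over 19264 genes with an FPKM of at least 1 in a genotype were computed here with Python 3.11.15, numpy 2.4.6 and pandas 2.3.3, after a test on simulated data. The threshold was 0.05. Replicates are labelled biological, but the table has no column per library, so limma could not be fitted. No read counts were used, so depth and counting error are unknown. Loci, promoters and transcripts come from RefSeq on TAIR10.1, and each gene is represented by its longest-coding transcript. The genes, their lists and the lists' tests were chosen with earlier results of these data known. Named in the text are all 10 photoreceptors, MIR163, PXMT1 and markers. In each list, genes at an unadjusted p under 0.05 or past a ratio of 1.5 are named, with the 2 of highest mean FPKM. LKP2, HY2, FHY1, FHL, COP1, HY5, the PIF factors and BBX22 were added after values were seen. The genes of the light-responsive list were also named in full. Alternatives were other minimum FPKM values, folds, pseudocounts and scalings, and weighting of shares by coding length.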

Additional observations from a re-analysis of the deposited data

How the results depend on the processing

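No paired analysis was possible because each genotype has a single FPKM column; leaving out each library was not run for the same reason. With no minimum FPKM and with a minimum of 5, where PHYD falls out and 9 photoreceptor genes are tested, 0 photoreceptor genes and 0 of all genes were called, and the lowest adjusted p over all genes was 0.0907 and 0.0925. At a ratio of 5 to 4, 2 photoreceptor genes (UVR8 and CRY1) passed, against 19.4% of all genes, and at a ratio of 2, 0 passed, against 2.35% of all genes. Pseudocounts of 0.1 and 5 and median-ratio scaling kept the direction of all 10 photoreceptor genes. Quantile normalization turned PHYC to -0.0034. Scaling to a sum of 1000000 moved the median of the photoreceptor genes to 0.14 and turned the medians of chromophore synthesis, cryptochrome partners and phototropin partners to 0.087, 0.12 and 0.049, by construction, since it multiplies every mir163 to WT ratio by 1.096. Under it UVR8 stood at 0.68 and CRY1 at -0.26. With FPKM multiplied by coding length, CRY1 held 61.9% of the cryptochrome sum in mir163 and 69.4% in WT, and CRY2 38.1% in mir163 and 30.6% in WT.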
